A study of Bos taurus with 6 samples.

Results

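Chromosomes 1, 6, 9, 12 and 20 were the 5 bovine autosomes with the fewest H3K4me3 peaks per Mb in blastocysts, and all of their peaks are described here. They carried 2832 of the 22404 peaks of replicate 1, 2365 of the 19076 peaks of replicate 2 and 2775 of the 22060 peaks of replicate 3, or 7972 of 63540 peaks over the 3 lists. The chromosomes were chosen on peak density in these same lists, so density and all measures that follow from it are given as a description with no test. Width, score and the overlap between replicates were not used for the choice and were compared with the other 24 autosomes, although they come from the same lists.

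H3K4me3 was measured by ChIP-seq in 3 biological replicates of in vitro produced blastocysts, and no other condition has a peak list. Each replicate was a pool of approximately 11 unsexed embryos taken 192 h after IVF (day 8) and grown in mSOF medium, with blastocysts at stages from early to hatched mixed together, and was precipitated with 3 µg of anti-H3K4me3 antibody. The authors called peaks in each library against its own input. The embryos came from 2 independent IVF procedures, so at least 2 of the 3 replicates shared a procedure, and which ones is not given in the sources used here. The SD and n over replicates therefore may not stand for 3 independent procedures, and inner cell mass and trophectoderm were pooled within each replicate.

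H3K4me3 is deposited on nucleosomes around the transcription start sites of active or poised genes, and it is often broad at CpG-rich promoters. The number of peaks along a chromosome therefore tends to follow where genes lie, and mammalian chromosomes alternate between gene-dense stretches and long gene deserts. Bovine autosomes are acrocentric, with the centromere at one end. Gene models of the build were not used here, so windows and regions below are positions on UMD 3.1.1 (bosTau8) and, with 1 exception, carry no gene name.

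Peak density on the 5 chromosomes was close to uniform from one to the next. Chromosome 20 had 4.98, 4.32 and 4.79 peaks per Mb in replicates 1, 2 and 3, and its mean of 4.70 ± 0.343 (SD, n = 3) was the lowest. The means were 4.77 ± 0.404 on chromosome 1, 4.89 ± 0.444 on chromosome 6, 4.95 ± 0.623 on chromosome 12 and 5.01 ± 0.560 on chromosome 9. Neighbours in this order differed by less than this spread, which includes changes between lists common to all 5. Within lists, chromosome 20 was below chromosome 1 in all 3 (5.12, 4.33 and 4.87 on chromosome 1). The order of the other neighbours changed between lists. The autosomes just outside the choice were chromosome 27 with 5.71 ± 0.557 and chromosome 4 with 5.74 ± 0.511 peaks per Mb. Replicate 2, the shortest list, gave the lowest density on each of the 5 chromosomes. The reads behind a peak are not in the lists, and a window without a peak is one where none was called in that library.

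**Figure D1:**
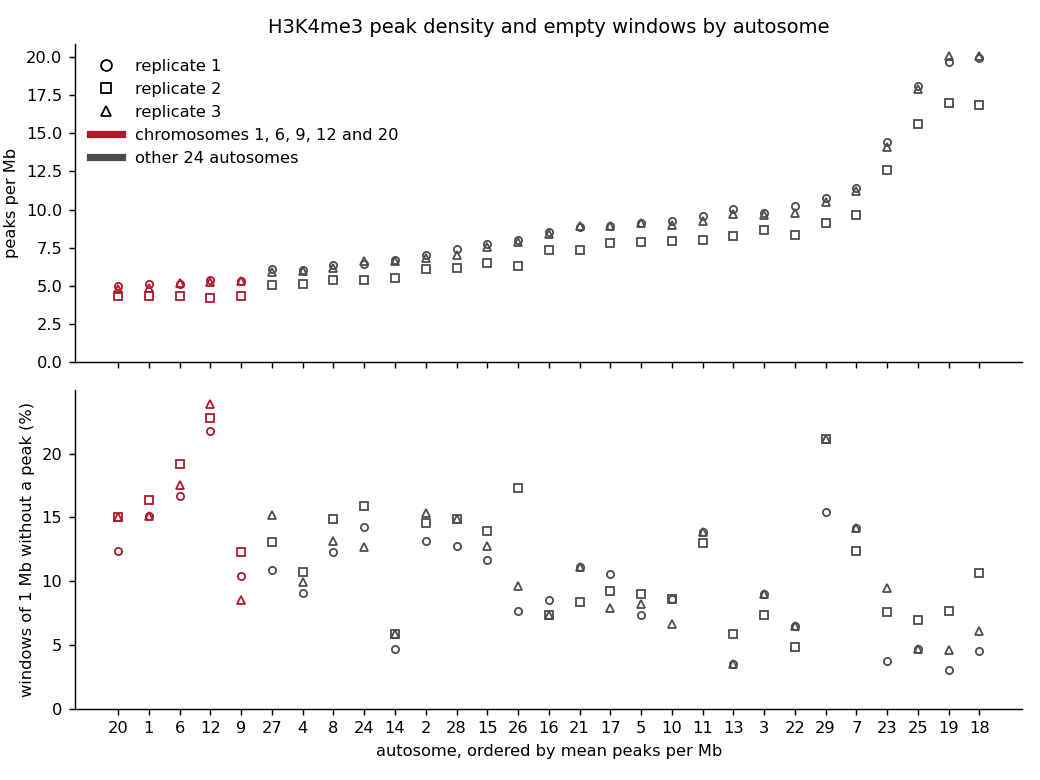
Peaks per Mb (top) and share of 1-Mb windows without a peak (bottom) for each autosome, ordered by mean density, with 1 symbol per replicate. The 5 chromosomes in red have 4.70 to 5.01 peaks per Mb on average but 10.4% to 22.8% empty windows.

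Despite the like density, the chromosomes differed in how much of their length had no peak. Each chromosome was divided into 1-Mb windows from its first base, and a peak was placed by its midpoint, which gave 550 windows on the 5 chromosomes and 1977 on the other autosomes. Of the 550 windows, 84 were empty in replicate 1, 94 in replicate 2 and 87 in replicate 3, or 15.3%, 17.1% and 15.8%. On the other autosomes the shares were 9.51%, 10.8% and 10.2%. The 95% Wilson intervals, which cover counting error only, reached at most 3.37 percentage points from a share of the 5 chromosomes and 1.44 points from one of the other autosomes.

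Chromosome 12 had the highest mean share of empty windows of the 29 autosomes, with 21.7%, 22.8% and 23.9% of its windows empty in the 3 lists. Chromosome 9, with the highest density of the 5, was empty in 10.4% ± 1.89 of its windows, close to the 10.2% ± 0.634 of the other 24 autosomes. Chromosomes 20, 1 and 6 lay between them, at 14.2% ± 1.58, 15.5% ± 0.726 and 17.8% ± 1.27. Chromosomes 20 and 1 differed by less than 1 SD of the former, and chromosome 12 was above chromosome 9 in each replicate. A high empty share was not limited to peak-poor chromosomes, since chromosome 29, outside the choice, had 19.2% ± 3.33. With 73 to 159 windows per chromosome the counting intervals are wide. In replicate 1 they were 14.5% to 31.2% for chromosome 12 and 5.89% to 17.6% for chromosome 9, which overlap, as do those of replicate 2. In replicate 3 they were 16.4% to 33.6% and 4.53% to 15.4%, which do not. The order of single chromosomes is a description with no test.

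Windows with few peaks were common on the 5 chromosomes and crowded ones were rare. Windows with at most 2 peaks made up 40.8% ± 2.48 of the 550 windows and 27.4% ± 1.82 of those on the other autosomes. Windows with more than 20 peaks numbered 8, 3 and 9 in replicates 1, 2 and 3, or 1.21% ± 0.584, against 248, 167 and 229, or 10.9% ± 2.14, elsewhere. Most of this contrast was shared by the 5 autosomes next in density, chromosomes 27, 4, 8, 24 and 14, where 2.33% ± 0.699 of the windows held more than 20 peaks. The share of empty windows there was 10.96% ± 0.932, close to that of the other autosomes as a whole. Windows of intermediate filling, with 6 to 10 peaks, were about as common in both sets, at 22.4% and 23.6%. The median window held 4, 3 and 4 peaks, compared with 6, 5 and 6 on the other autosomes.

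**Figure D2:**
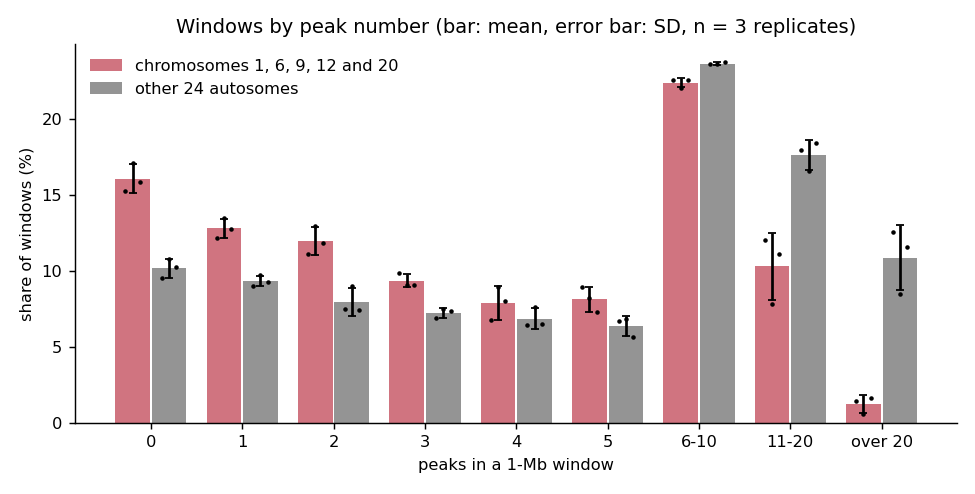
Share of 1-Mb windows (vertical axis, %) by the number of peaks they hold (horizontal axis). Bars are means and error bars SD over 3 replicates, with a point for each. The 5 chromosomes have more windows with 0 to 2 peaks and 1.21% against 10.9% of windows with more than 20.

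Windows were ranked over each set as a whole. Ranked this way, peaks on the 5 chromosomes gathered less in the fullest windows than those on the other 24 autosomes. They did not gather less than on the autosomes of the nearest density. The fullest 10% of windows (55 windows) held 32.0%, 31.0% and 33.3% of the peaks in replicates 1, 2 and 3, a mean of 32.1% ± 1.15. On the other autosomes the fullest 10% (198 windows) held 37.2% ± 0.309. On the 5 autosomes next in density the pooled share was 31.5% ± 0.045, within the spread of the 5 chromosomes. Mean density ran from 5.71 to 18.9 peaks per Mb among the other 24 autosomes, so their pooled share also holds differences between chromosomes. Ranked within single chromosomes, the mean share ran from 27.1% to 39.0% on the 5 and from 27.2% to 50.4% on the other 24. To reach 50% of the peaks took 104 ± 3.06 windows on the 5 chromosomes, or 18.97% ± 0.555 of them, compared with 16.2% ± 0.101 on the other autosomes and 20.05% ± 0.233 on those next in density.

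The 5 chromosomes again did not behave as one. On chromosome 12 the fullest 10% of windows held 39.0% ± 1.17 of its peaks, so that it joined the largest empty share of the 5 to the strongest gathering. Chromosome 9 was the opposite, with 27.1% ± 0.935, the lowest mean of the 29 autosomes, though within its spread of chromosome 24 at 27.2% ± 0.533. Chromosomes 20 and 6 had 35.1% ± 0.947 and 34.3% ± 1.76, which differed by less than their spread, and chromosome 1 had 30.9% ± 0.882.

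Distances between neighbouring peaks gave the same picture at a finer scale. The median gap was 64.3, 82.2 and 62.4 kb in replicates 1, 2 and 3, a mean of 69.7 ± 10.9 kb, against 30.1 ± 4.17 kb on the other autosomes. Gaps under 10 kb made up 19.02% ± 2.47 of the gaps, compared with 28.5% ± 2.74, and gaps over 500 kb made up 9.95% ± 1.34, compared with 4.64% ± 0.554. Peaks covered 11.2 ± 1.52 kb per Mb, which was 0.554 ± 0.0041 of the coverage on the other autosomes. Much of this contrast was shared by the 5 autosomes next in density. Their median gap was 54.5 ± 8.91 kb, with 22.2% ± 3.16 of gaps under 10 kb and 8.36% ± 0.945 over 500 kb. Peaks there covered 12.8 ± 1.82 kb per Mb.

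For the most part, the same windows were empty or full in the 3 lists. Of the 550 windows, 441 (80.2%) had a peak in all 3 lists and 64 (11.6%) had none in any, while 28 had one in 1 list and 17 in 2. The corresponding shares of the other 1977 windows were 87.3% and 7.38%. The windows empty in all lists were 19 of 159 on chromosome 1, 18 of 120 on chromosome 6, 4 of 106 on chromosome 9, 16 of 92 on chromosome 12 and 7 of 73 on chromosome 20. Agreement was weakest on chromosome 9, where 11, 13 and 9 windows were empty in replicates 1, 2 and 3. At the other end, 39 of the 55 fullest windows were the same in all 3 lists. As a description over the 550 windows, which share the same genome and gene content, Pearson's r between the peak numbers of replicates was 0.956 to 0.971. On the other autosomes it was 0.982 to 0.987.

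Long stretches without any peak lay on 4 of the 5 chromosomes. The longest was on chromosome 6, where the 5 windows of chr6:52000001-57000000 were empty in all 3 lists and no list had a peak within chr6:51538336-57246145, a distance of 5.71 Mb. Among runs empty in all 3 lists, the next longest on any chromosome was 4 windows, on chromosome 24. In single lists, chromosomes 1 and 12 in replicate 2 and chromosome 9 in replicate 1 also had runs of 5 empty windows. On chromosome 1, chr1:11685305-15363542 (3.68 Mb) held no peak, and on chromosome 12 the same was true of chr12:5723760-9146663 (3.42 Mb). Chromosome 20 had a peak-free stretch of 3.04 Mb at chr20:44737141-47773801. On chromosome 9 no 2 neighbouring windows were empty in all 3 lists, and the peak-free stretch around the first of its 4 single empty windows was 1.77 Mb long, at chr9:1784633-3558699.

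The stretch on chromosome 20 was part of a much longer one with weak peaks only. Within the 13 windows of chr20:43000001-56000000, replicates 1, 2 and 3 had 7, 6 and 6 peaks, and none of these reached the median score of its list. The highest stood at percentile 39.8, 43.9 and 45.6 of its list. The longest such run on any of the other 24 autosomes was 8 windows, on chromosome 11, and on chromosomes 1 and 9 it was 7. This search was added after the data had been seen.

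Each chromosome also had a window in which peaks were crowded. The fullest was chr6:109000001-110000000 with 38, 25 and 42 peaks in replicates 1, 2 and 3, or 7.16 times the mean per Mb of chromosome 6. It alone held 6.003% of the peaks of that chromosome. On chromosome 12, chr12:90000001-91000000 had 31, 19 and 30 peaks and was the fullest window in 2 of the 3 lists. On chromosome 1, chr1:83000001-84000000 had 25, 20 and 26 peaks.

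The remaining windows of this kind were chr20:31000001-32000000 with 26, 19 and 25 peaks and chr9:96000001-97000000 with 21, 14 and 25 peaks. Replicate 2 had the fewest peaks in each of these 5 windows. The windows on chromosomes 6, 9 and 12 lay toward the far end of the chromosome, and those on chromosomes 1 and 20 lay farther inside.

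Taken over the 5 chromosomes, peaks were densest toward the far end. When each chromosome was divided into 10 equal parts, the last part held 17.96% ± 1.25 of the peaks of the 5 chromosomes and 15.1% ± 0.556 of those on the other autosomes. The first part held 6.36% ± 0.394, against 8.73% ± 0.069. The seventh part had 6.08% ± 0.350, compared with 10.2% ± 0.124 elsewhere.

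The profiles of the single chromosomes were distinct and recurred in each replicate. Chromosome 12 carried 22.2% ± 0.618 of its peaks in part 4, at 11.0 ± 1.25 peaks per Mb, and 1.91% ± 0.151 in its first. Chromosome 20 was dense from its start, with 14.3% ± 1.11 in its first part and 16.4% ± 1.17 in its second, where chromosome 12 also had 15.3% ± 0.258. Its seventh part held 0.983% ± 0.123, or 0.463 ± 0.080 peaks per Mb, the sparsest part on any of the 5. The first part of chromosome 12 had 0.951 ± 0.168 peaks per Mb and the second part of chromosome 1 had 1.07 ± 0.063. Chromosomes 6 and 9 rose most at the far end, where the last part held 21.1% ± 2.05 and 19.4% ± 1.78.

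**Figure D3:**
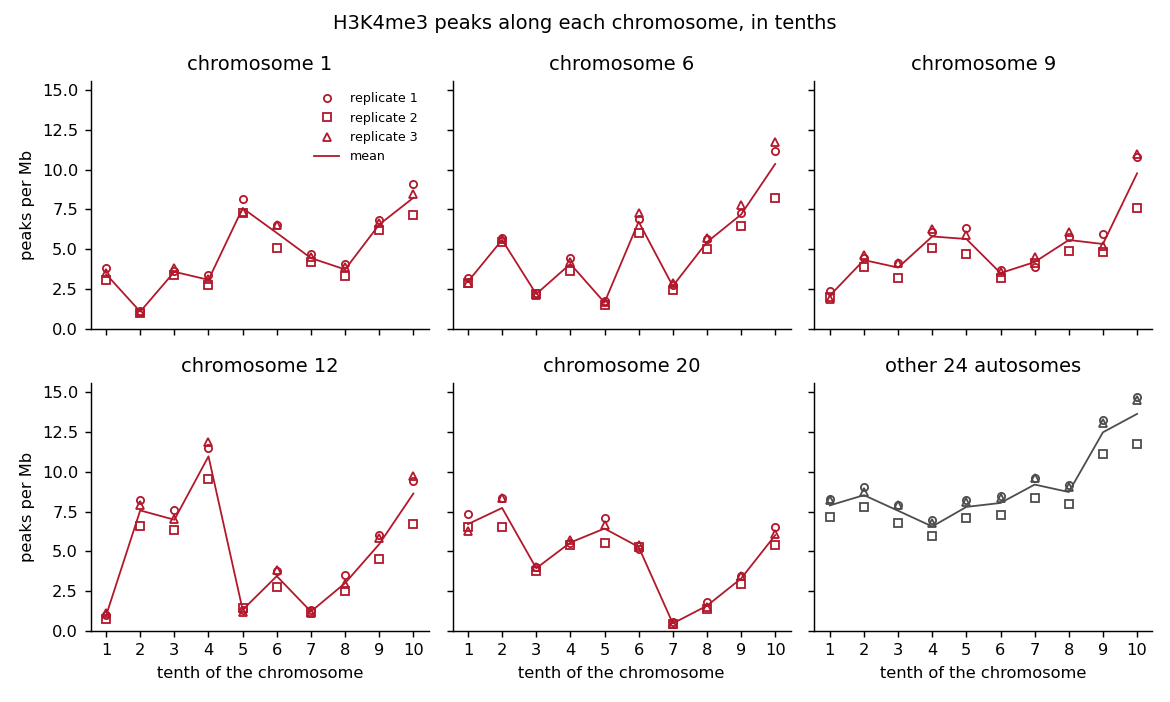
Peaks per Mb (vertical axis) in 10 equal parts of each of the 5 chromosomes and of the other 24 autosomes combined, numbered from the first base, with 1 symbol per replicate and a line through the means. Chromosome 12 is highest in part 4 at 11.0 peaks per Mb, and chromosome 20 falls to 0.463 in its seventh.

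Although fewer, the peaks on these chromosomes differed little in median width from those elsewhere. In replicates 1, 2 and 3 the median was 2110.5, 2028 and 1829 bp, against 2095, 1932 and 1785 bp on the other autosomes. It was higher in all 3 lists, by 51.8 ± 40.8 bp (SD, n = 3), and the exact two-sided sign-flip permutation test over the lists gave p = 0.25. This is the smallest p that 3 replicates allow, so no difference here could pass a threshold of 0.05, and such p-values measure only the spread between these 3 pools. Without chromosome 1 the difference was -10.7 ± 46.0 bp, higher in 1 of 3 lists, and without replicate 2 it was 29.8 bp. Broad peaks of at least 5000 bp made up 4.80% ± 1.501 of the peaks, compared with 4.33% ± 1.59, and the difference within lists was 0.472 ± 0.140 percentage points, positive in all 3.

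Scores are those of the peak caller and were used only as percentiles within each list, where 50 is the middle peak. The median percentile was 50.01, 50.99 and 50.68 in replicates 1, 2 and 3, against 50.24, 50.27 and 50.16 on the other autosomes. The difference of 0.337 ± 0.505 was smaller than its spread and changed sign between lists (exact permutation test, two-sided, p = 0.5). Against the 5 autosomes next in density it was 3.54 ± 0.226 and positive in all 3 lists (exact permutation p = 0.25). The width difference in that comparison was 156 ± 9.88 bp. These 5 autosomes differed among themselves. Their median percentiles averaged 35.7, 42.1, 46.6, 49.0 and 52.1 on chromosomes 27, 24, 4, 14 and 8. In the same order, their median widths averaged 1475, 1713, 1863, 1897 and 1917 bp. How much of either difference came from chromosomes 27 and 24 was not tested. Leaving out chromosome 1 turned the percentile difference from the other autosomes to -1.36 ± 0.190, negative in all 3 lists (exact permutation p = 0.25). In that same comparison, leaving out replicate 1 gave 0.622 and leaving out replicate 2 gave 0.143.

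Chromosome 1 thus stood apart from the other chromosomes of the group in both measures. Its median score percentile was 56.4 ± 1.53 and its median width 2151 ± 94.1 bp. The percentiles of chromosomes 6 and 9 were 50.7 ± 1.03 and 49.3 ± 1.56, and those of chromosomes 20 and 12 were 47.2 ± 2.40 and 46.7 ± 1.91. The median widths of chromosomes 6, 9, 12 and 20 were 2019 ± 181, 1948 ± 166, 1888 ± 184 and 1843 ± 107 bp. In each replicate the percentile of chromosome 1 was above those of the other 4, whereas the widths of these 4 overlapped over replicates.

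The weakest and the strongest peaks were both somewhat more frequent than on the other 24 autosomes. Peaks with a score under 100, the weakest class, made up 20.27%, 19.20% and 21.01% of the peaks on the 5 chromosomes and 18.04%, 18.91% and 18.75% of those elsewhere. At the top, where many peaks share a score of 3100, peaks at or above it made up 20.2%, 7.95% and 18.1%, against 18.2%, 6.67% and 15.8%. Both classes were larger on the 5 chromosomes in every list, the weak one by 1.59 ± 1.13 percentage points and the top one by 1.86 ± 0.512. Against the 5 autosomes next in density, the weak class differed by 0.034 ± 1.10 points and was smaller in replicate 2, and the top class was larger by 3.62 ± 1.33 points. These differences were not tested. Without chromosome 20 the excess of weak peaks held in 2 of 3 lists, and that of top peaks was between 1.07 and 2.47 points whichever chromosome was left out.

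Peaks on the 5 chromosomes were recovered in the other replicates somewhat less often. The share overlapped by at least 1 bp in both other lists was 73.83%, 90.02% and 77.66% in replicates 1, 2 and 3, against 76.49%, 92.13% and 80.01% elsewhere. It was lower in all 3 lists, by 2.37 ± 0.276 percentage points (exact permutation test, two-sided, p = 0.25, the smallest possible). A peak shared by all lists is the same region counted once in each, so the 3 values are tied to one another, and their small SD and common sign are not 3 separate observations. Against the 5 autosomes next in density the difference was -0.637 ± 0.209. Each list was also cut to peaks with at least its median score, and overlap was counted between the cut lists. The difference from the other autosomes was then -0.423 ± 0.787 and negative in 2 of 3 lists.

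In both sets the share overlapped was higher among peaks with a score of at least 100 than among weaker ones. Among peaks with a score of at least 100, 93.0% ± 4.94 were overlapped in both other lists, compared with 93.7% ± 4.40 elsewhere, a difference within lists of -0.699 ± 0.569 points that was negative in all 3. Among weaker peaks the shares were 15.7%, 54.8% and 23.2% in replicates 1, 2 and 3, against 15.5%, 64.5% and 24.8%, and the differences were 0.213, -9.69 and -1.64 points. Chromosomes 1 and 6 had shares of 82.3% ± 7.63 and 82.8% ± 7.76, and chromosomes 9, 12 and 20 had 78.2% to 78.8%. Merging the peaks of the 3 lists gave 3193 regions, of which 2065 (64.7%) had a peak in all 3 lists and 727 (22.8%) in 1 list, compared with 68.5% and 20.1% of 20669 regions elsewhere.

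**Figure D4:**
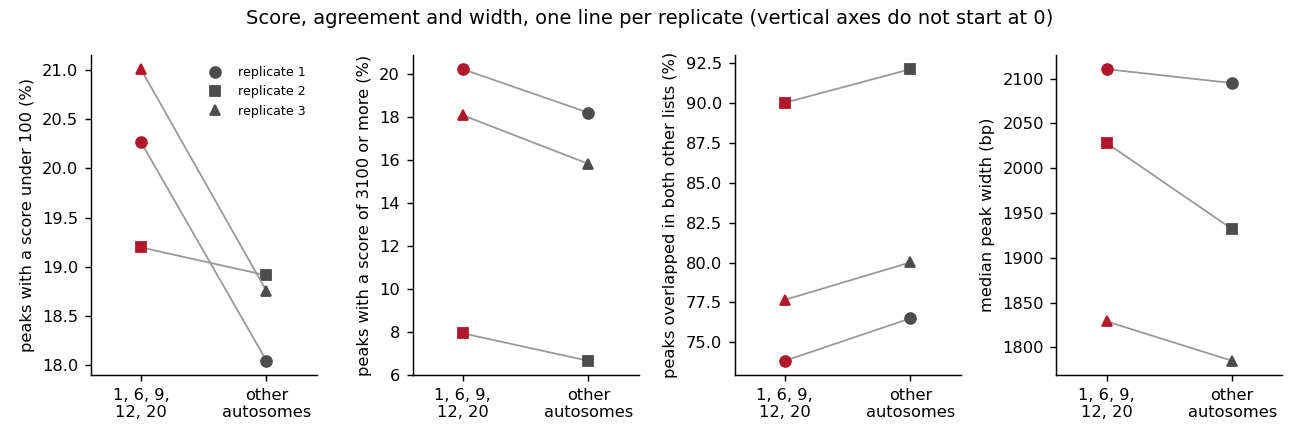
Peaks with a score under 100 (%), peaks with a score of 3100 or more (%), peaks overlapped in both other lists (%) and median width (bp) on the 5 chromosomes and the other autosomes, 1 line per replicate, with vertical axes that do not start at 0. Weak peaks, top peaks and width are higher on the 5 chromosomes in every list, and the share overlapped is lower.

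The score of a peak varied with how full its window was. Each window was classed by its mean peak number in the other 2 lists. This does not separate the class from the peak, because a peak recovered in those lists is counted in its class. In the class with up to 2 peaks, 72.1% ± 8.81 of the peaks on the 5 chromosomes were overlapped in both other lists. How much of the pattern below comes from this was not tested. In windows with up to 2 peaks, the median percentile was 37.0 ± 1.93, and it was 54.6 ± 0.374 in windows with more than 5 and up to 10. The corresponding values elsewhere were 33.8 ± 2.05 and 49.9 ± 0.293. In windows that were empty in the other 2 lists, the 8 to 12 peaks per list had a median percentile of 7.14 and a median width of 803 bp. By construction these peaks had no counterpart in the same window of the other lists, and 83.6% ± 3.76 of them had a score under 100. Their low percentile therefore says little about the windows.

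The most crowded windows differed between the sets. In windows with more than 20 peaks in the other lists, the 171 to 178 peaks per list on the 5 chromosomes had median percentiles of 39.1, 47.9 and 36.3, against 53.1, 52.0 and 51.7 on the other autosomes. Their median widths were 1778, 1868 and 1458.5 bp, against 2170.5, 1954 and 1827 bp. Both were lower in all 3 lists. These peaks lie in few windows and share them, and the difference was not tested.

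**Figure D5:**
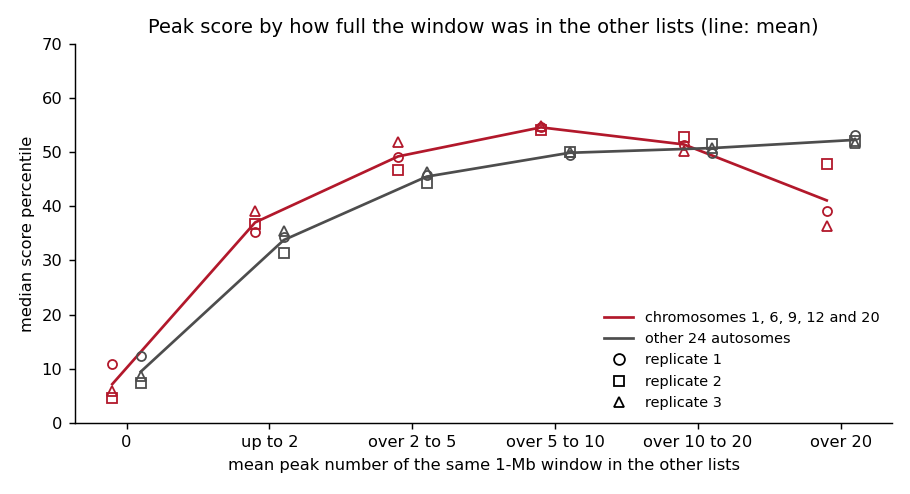
Median score percentile (vertical axis) of peaks in 1-Mb windows classed by their mean peak number in the other 2 lists (horizontal axis), 1 symbol per replicate and a line through the means. The 5 chromosomes lie above the other autosomes at 54.6 against 49.9 in windows with over 5 to 10 peaks, and below them at 41.1 against 52.3 in the fullest windows.

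The highest score within each of the widest regions common to the 3 lists was 3100 in each list. On chromosome 9, chr9:96630488-96647028 was covered over 16138, 15841 and 15904 bp in replicates 1, 2 and 3, and it lay in the fullest window of that chromosome. It was 1 peak in replicate 1 and was split into 2 peaks in replicates 2 and 3. On chromosome 12, chr12:48100494-48114563 was covered over 13938, 12251 and 13844 bp. On chromosome 1, chr1:134187438-134199612 was covered over 12175, 10830 and 11179 bp.

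Chromosomes 6 and 20 had shorter regions of this kind. The one on chromosome 6, chr6:64742635-64753256, was covered over 10622, 10093 and 9840 bp, and the one on chromosome 20, chr20:37388420-37399213, over 10377, 7939 and 9763 bp. Replicate 2 had the narrowest coverage on chromosomes 1, 9, 12 and 20, and replicate 3 on chromosome 6.

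SDHA, which encodes the flavoprotein subunit of succinate dehydrogenase in the mitochondrial respiratory chain and is often used as a reference gene, lies at the far end of chromosome 20. Each list had 1 peak in the 8 kb that the study displays for it, at chr20:71961537-71965852 in replicate 1, chr20:71962079-71965625 in replicate 2 and chr20:71962175-71965812 in replicate 3. The peaks were 4316, 3547 and 3638 bp wide, with scores of 3100, 2852 and 3100, at percentiles 90.4, 91.7 and 91.6 of their lists. They were thus among the wider peaks of chromosome 20, at width percentiles of 89.0, 87.3 and 86.2. The 1-Mb window around SDHA held 17, 13 and 16 peaks, and its neighbours in the ARS-UCD2.0 assembly are PDCD6 and CCDC127.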

How the data were processed

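ChIP-seq of H3K4me3 was analysed in 3 replicates. Per the submitters' processing notes and the methods, the authors aligned 51-base single-end reads to UMD 3.1.1 (bosTau8) with Bowtie 1.2.3, used Picard to remove duplicates, and ran MACS on each library with its matched input. The MACS version and threshold are not given in the sources used here. The authors deposited, per replicate, the position and score of each peak. Input libraries and gene models were not analysed here.

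Chromosomes, measures and lists were chosen with earlier results of these data known. The end of the last peak in any list stood in for chromosome length. Scores were ranked within a list, ties at their middle rank. Named regions were, per chromosome, the fullest window, the longest run of windows empty in all 3 lists and the widest region common to all 3 lists (by its smallest coverage), plus SDHA. Differences between sets were tested over replicates by exact sign-flip permutation. The list totals, 19076 to 22404 peaks, are the only measure of depth used. Python 3.11.15, NumPy 2.4.6, pandas 2.3.3, SciPy 1.17.1 and Matplotlib 3.10.9 were used, and the functions were tested on simulated peaks.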

Additional observations from a re-analysis of the deposited data

How the results depend on the processing

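The width difference ranged from 29.8 to 156 bp and the percentile difference from 0.102 to 3.60 under 12 alternatives each, and both turned negative without chromosome 1 (-10.7 bp and -1.36). The width difference was 126 bp among peaks at or above the median score, 79.3 bp without chromosome 12 and 156 bp against the 5 next autosomes, a comparison added after the data were seen. The difference in shared peaks stayed negative under all 14 alternatives, from -3.07 to -0.423 points, and was -1.21 when each peak had to cover 50% of the other. The cause of these shifts was not tested. With 500-kb windows, 32.9% were empty, occupied windows held 3.61 peaks, the fullest 10% held 36.8% and the longest empty run was 5.17 Mb. With 2-Mb windows these were 6.40%, 10.3, 28.2% and 4 Mb, and with a shift by 500 kb 17.1% were empty. Keeping peaks at or above the median score left 1342 peaks, 29.9% empty windows, 3.48 peaks per occupied window, 34.1% in the fullest 10% and a run of 13 Mb. With equal peak numbers these were 17.9%, 5.24 and 5.33 Mb for empty windows, peaks per occupied window and the longest run. At each window size and with the shift, the 5 chromosomes had more empty windows than the other 24 autosomes. They also had less gathering, with windows ranked over each set as a whole. No paired analysis was possible between H3K4me3 and input libraries, because the input libraries, which share the replicate numbers, have no peak list. The differences between chromosome sets were taken within each list, so their tests pair the sets by list. A window without a peak cannot be told apart from one whose signal was too weak to be called in that library.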
